A study of Mus musculus with 8 samples.

Results

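Iron enters, is stored in and leaves a cell through a small set of proteins, and 10 of their genes are described here in hematopoietic cells cultured with or without red blood cells (RBCs). The genes were taken by name, each for a role in iron handling: Tfrc, Tfr2 and Slc11a2 for uptake, Slc40a1 for export, Fth1 and Ftl1 for storage, Ireb2 and Aco1 for iron sensing, Bach1 for heme sensing and Slc25a37 for import into mitochondria. They are 10 of the 24346 gene symbols with a value in every library, and all 10 passed the filter that left 12003 genes for testing.

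The mouse cells were wild-type primary bone marrow cells in 4 groups of 2 libraries. LSK cells were sorted by the gate Lin-/Sca-1+/cKit+, which also holds multipotent progenitors, and hematopoietic stem cells (HSCs) were the part of that gate negative for CD48 and positive for CD150. Per the study's methods, the cells came from adult C57BL/6 mice of either sex and were kept for 1 day with thrombopoietin and stem cell factor, alone or together with irradiated RBCs depleted of leukocytes. The cultures were then treated with a lysis buffer for RBCs, and CD45-positive cells were sorted for RNA. The final sort did not repeat the HSC or LSK gate, and the labels do not say whether the 2 libraries of a group came from separate mice or cultures.

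Cells take up transferrin-bound iron through transferrin receptor 1 (Tfrc) and move it out of endosomes through DMT1 (Slc11a2). Iron that is not used is stored in ferritin, a shell of heavy (Fth1) and light (Ftl1) chains, or leaves through ferroportin (Slc40a1). The RNA-binding proteins IRP1 (Aco1) and IRP2 (Ireb2) bind hairpins called iron-responsive elements (IREs) when iron is scarce. A hairpin in the 5′ UTR then blocks translation of ferritin and ferroportin, and hairpins in the 3′ UTR protect the Tfrc transcript from decay. Bach1 represses heme oxygenase and ferritin genes and is released when it binds heme, the iron-containing group that RBCs carry in hemoglobin. Transcript levels were measured here, so control of translation is outside these values.

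The IRE hairpins are shown because they are the sequence that joins the storage, export and uptake genes. A search of GENCODE M21 transcripts (GRCm38, the assembly also named mm10) for the loop CAGTGN flanked by 5 bases on each side that can pair at every position (A with T, G with C, or G with T), with a C just before the first arm, found the sites below. The same search matched 271 of 21877 protein-coding genes in their longest transcript (1.24%). Capitals mark the 6 loop bases, and each site is 29 bases long, written 5′ to 3′ on the strand of the gene.
Fth1, 5′ UTR, chr19:9982732-9982760, plus strand: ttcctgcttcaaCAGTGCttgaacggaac
Ftl1, 5′ UTR, chr7:45459779-45459807, minus strand: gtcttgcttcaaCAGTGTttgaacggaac
Slc40a1, 5′ UTR, chr1:45925465-45925493, minus strand: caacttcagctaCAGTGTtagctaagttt
Tfrc, 3′ UTR, chr16:32631219-32631247, plus strand: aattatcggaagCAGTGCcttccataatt
Tfrc, 3′ UTR, chr16:32631598-32631626, plus strand: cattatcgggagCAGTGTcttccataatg
Tfrc, 3′ UTR, chr16:32631663-32631691, plus strand: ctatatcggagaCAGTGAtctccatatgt
Tfrc, 3′ UTR, chr16:32631710-32631738, plus strand: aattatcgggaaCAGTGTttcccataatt
The ferritin sites share their loop-side arms, whereas the 4 Tfrc sites lie within the same 3′ UTR. These letters were not found in the transcripts of Slc11a2, which says only that the strict form of the hairpin is absent there.

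Values are FPKM, fragments divided by the length of the transcript and the mapped total of the library, so that levels of different genes can be set side by side. Library sums of FPKM ranged from 680942 to 752107, with 14829 to 16551 genes above 0. Absolute depth is unknown, and the depth relative to the first HSC library without RBCs lay between 0.787 and 1.006 by the recurring ratio of low values. Differences below are in log2(FPKM + 1), with RBCs minus without or LSK cells minus HSCs, and changes of weakly expressed genes are understated on this scale. Calls were made where the limma p-value, adjusted by Benjamini-Hochberg over all 12003 genes, was under 0.05. For groups of 2 the smallest p-value of an exact permutation test (two-sided) is 0.333, so the calls rest on a spread shared across genes, and the p-values measure only the spread between these libraries, which may be technical.

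The gate genes were present: Ptprc (CD45), Kit and Ly6a (Sca-1) reached at least 38.3, 90.8 and 170 FPKM in every library. Cd48 was at 42.7 and 40.5 FPKM in HSCs without RBCs, at 16.0 and 22.8 FPKM in HSCs with them and between 124 and 184 FPKM in the LSK libraries, so its transcript was lower in the gate that excludes CD48 but not absent. With RBCs, 3 of the 5 gate genes were called lower in the average of both populations and none higher, namely Cd48 (-0.73), Kit (-0.33) and Slamf1, which encodes CD150 (-0.49), and in HSCs alone Cd48 (-1.08, adjusted p = 0.00694) and Kit (-0.37, adjusted p = 0.0214) were called lower. No gate gene was called in LSK cells alone. Ly6a went the other way in HSCs, from 388 and 444 FPKM to 719 and 544 FPKM with RBCs. In LSK cells it was at 381 and 226 FPKM and then at 204 and 170 FPKM. Some markers of the sorted populations thus also differed between cultures with and without RBCs. The hemoglobin genes did not move together. Hba-a1 rose by 5.99 in HSCs and by 4.16 in LSK cells on the log2 scale. Hbb-b1 rose by 3.97 in HSCs, but in LSK cells it was at 0.907 and 2.12 FPKM without RBCs and at 0.0438 and 0.0145 FPKM with them. The most abundant, Hbb-b2, was at 279 and 335 FPKM in HSCs without RBCs and at 120 and 158 FPKM with them (limma adjusted p = 0.157). The counting can split reads between the near-identical copies of each hemoglobin chain, so their single values are uncertain. The summed FPKM of the 10 red blood cell genes with a value was 300.2 to 356 in HSCs and 324 to 332 with RBCs, against 129 to 194 and then 139 to 198 in LSK cells. Of the 8 red blood cell genes tested, 4 were called higher with RBCs in the average of both populations and none lower. The shares of all tested genes were 3.38% higher and 1.99% lower. Alas2 and Hbb-bs reached 1 FPKM only in libraries with RBCs, so they passed the filter only through those libraries. Slc4a1, the RBC anion exchanger, was at or below 0.0187 FPKM in every library. Summed FPKM of 8 neutrophil genes was 8.54 to 10.6 in HSC libraries without RBCs and 45.9 to 252 with them, against 128 to 218 and then 359 to 561 in LSK libraries. Of 12 genes of iron-recycling macrophages, 7 were under 1 FPKM in every library, with C1qa and Marco listed at 0. Csf1r rose by 1.38 in the average of both populations, and the 4 tested genes of this list did not move together. Their differences were above 0 for 2 and below 0 for 2 in HSCs. In LSK cells all 4 were above 0, and in the average 3 were above and 1 below. In bulk RNA, fewer cells of a type and less RNA per cell cannot be told apart, and the part of these cells and of the gate genes in the results below was not tested.

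The 2 ferritin genes stood far above the other 8 in level. Ftl1 held ranks between 1 and 5 among all 24346 symbols and was the top symbol in all 4 LSK libraries, while Fth1 ranked between 17 and 30. The other 8 genes lay between 4.93 FPKM, for Ireb2 in an HSC library with RBCs, and 47.5 FPKM, for Tfr2 in an HSC library with RBCs. Tfr2 was the highest of these 8 in every library.

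**Figure D1:**
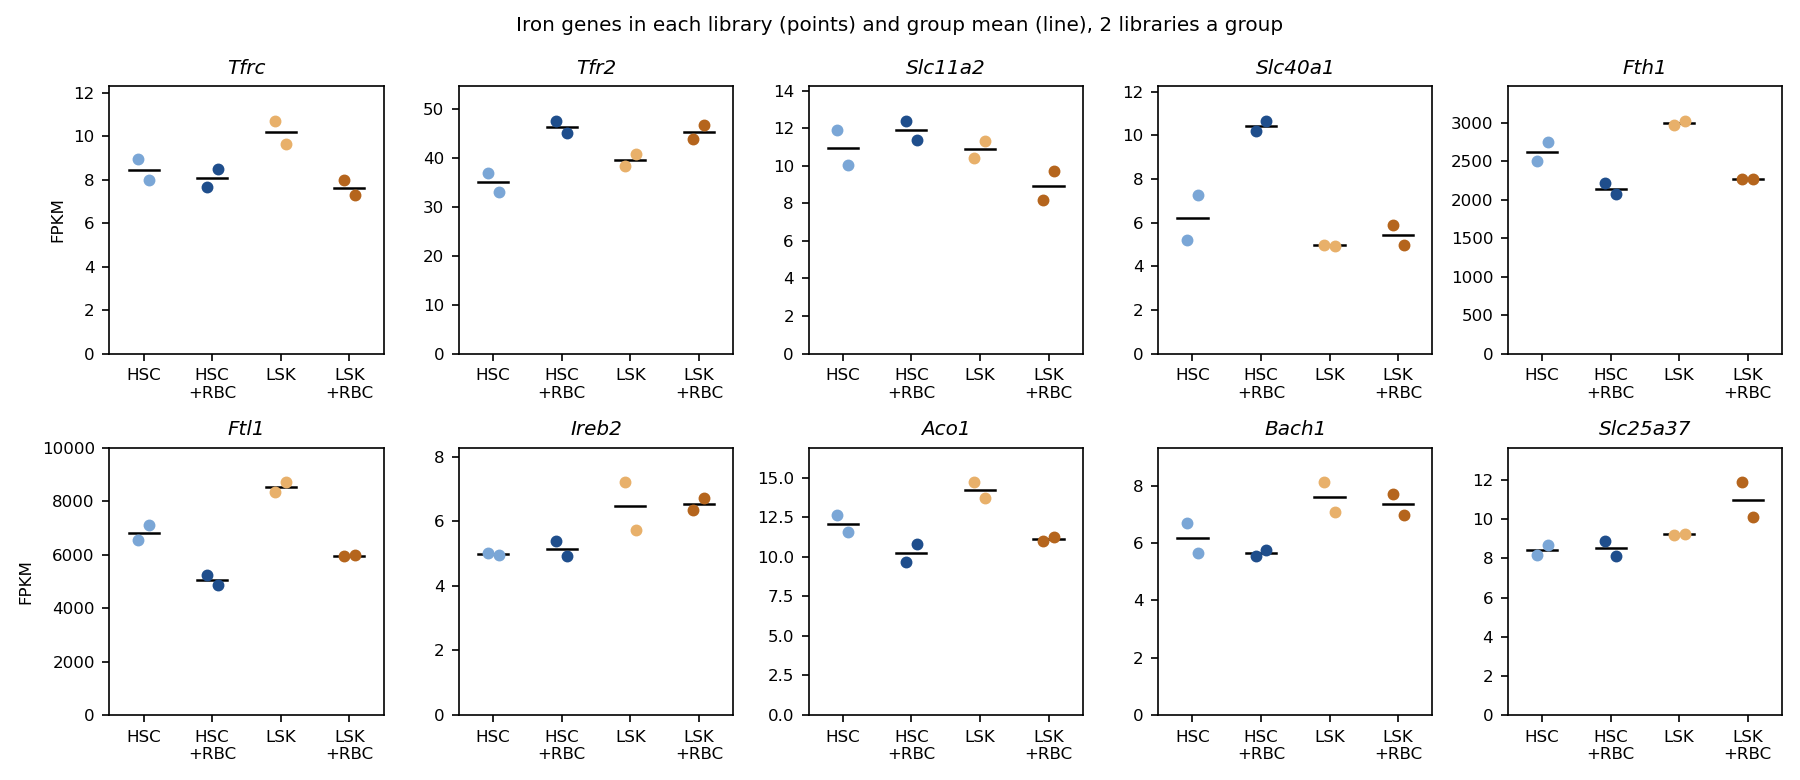
FPKM (vertical axis from 0, a separate scale for each gene) of the 10 iron genes in the 4 groups, HSCs and LSK cells without and with RBCs; points are the 2 libraries of a group and lines their mean. Fth1 and Ftl1 are lower in both populations with RBCs, Tfr2 is higher in both, and Slc40a1 is highest in HSCs with RBCs, at 10.2 and 10.7 FPKM.

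The question of the series was what contact with RBCs changes in stem and progenitor cells. Across both populations, the ferritin genes fell and Tfr2, a transferrin receptor known for iron sensing in the liver and in erythroid cells, rose with RBCs. These 3 of the 10 genes were called in the average of both populations, 1 higher and 2 lower, against 5.37% of all tested genes called in either direction. The median difference of the 10 genes was -0.07, beside -0.01 for all genes tested. In HSCs alone Tfr2 was called higher and Ftl1 lower (2 of 10, against 2.53% of all genes, 1.57% higher and 0.958% lower). In LSK cells alone Fth1 and Ftl1 were called lower (2 of 10, against 3.45% of all genes and 1.13% lower). All differences of the 10 genes were below 2-fold.

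Ftl1, the ferritin light chain (chr7:45457944-45459884, minus strand), showed the clearest decrease. In HSCs it stood at 6539 and 7129 FPKM without RBCs and at 5263 and 4866 FPKM with RBCs. LSK cells had 8360 and 8713 FPKM without RBCs and 5961 and 5979 FPKM with them. The groups did not overlap in either population, as for 6.97% of tested genes that were lower with RBCs in both. The decrease was -0.43 in HSCs (SE 0.0780, adjusted p = 0.0214) and -0.52 in LSK cells (SE 0.0780, adjusted p = 0.00915). On average Ftl1 fell by 0.47 on the log2 scale (SE 0.0551, adjusted p = 0.00143), a decrease exceeded by 1.39% of tested genes. Quantile normalization sets the LSK difference of Ftl1 to 0.00 by construction, since it was the top gene in each LSK library. The HSC and average decreases were still called there. Ftl1 had rank 2 in both HSC libraries without RBCs, so their values were also made equal by construction. The average includes the fixed LSK value, so these calls are no separate support for the decrease.

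Fth1, the ferritin heavy chain, which oxidises iron for storage (chr19:9980598-9985098, plus strand), moved the same way. It stood at 2499 and 2747 FPKM in HSCs without RBCs and at 2211 and 2077 FPKM with them. In LSK cells the values were 2965 and 3024 FPKM without RBCs and 2270 and 2267 FPKM with them. Here too the groups did not overlap in either population, as for 6.97% of tested genes that were lower in both. The decrease of -0.40 in LSK cells passed the test (SE 0.0712, adjusted p = 0.0195), the difference of -0.29 in HSCs did not (SE 0.0712, adjusted p = 0.0793), and the average of -0.35 did (SE 0.0504, adjusted p = 0.00451).

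Both average calls held when any of the 8 libraries was left out, with Ftl1 between -0.50 and -0.44 and Fth1 between -0.38 and -0.31 (adjusted p at most 0.0363). The calls within a population did not hold this way. In LSK cells both were lost without any 1 of the 4 LSK libraries (adjusted p from 0.0796 to 0.160). In HSCs, Ftl1 was lost without either HSC library with RBCs or any LSK library (adjusted p from 0.0594 to 0.238), and Fth1 passed without the first HSC library without RBCs (adjusted p = 0.0161). The test of the difference between the populations called neither gene (Ftl1 0.08, interval -0.16 to 0.33; Fth1 0.11, interval -0.12 to 0.34). Reads from ferritin pseudogenes cannot be told from those of Fth1 and Ftl1 in these values, and Ftl1 also overlaps Gm22133 on its own strand and Gm10252 on the other in the annotation, so both levels are uncertain to that extent.

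Together the ferritin transcripts made up 1.29% and 1.31% of the FPKM sum in HSCs without RBCs and 1.05% and 0.986% with RBCs. In LSK cells their share was 1.60% and 1.69% without RBCs and 1.19% and 1.21% with them. The ratio of Ftl1 to Fth1 was 2.62 and 2.60 in HSCs and 2.38 and 2.34 with RBCs, while in LSK cells it was 2.82 and 2.88 and then 2.63 and 2.64. The lowest ratio without RBCs lay above the highest ratio with RBCs within each population. Among single genes, 6.97% of those tested were likewise lower without overlap in both populations. Whether the 2 chains fell unequally was not tested.

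**Figure D2:**
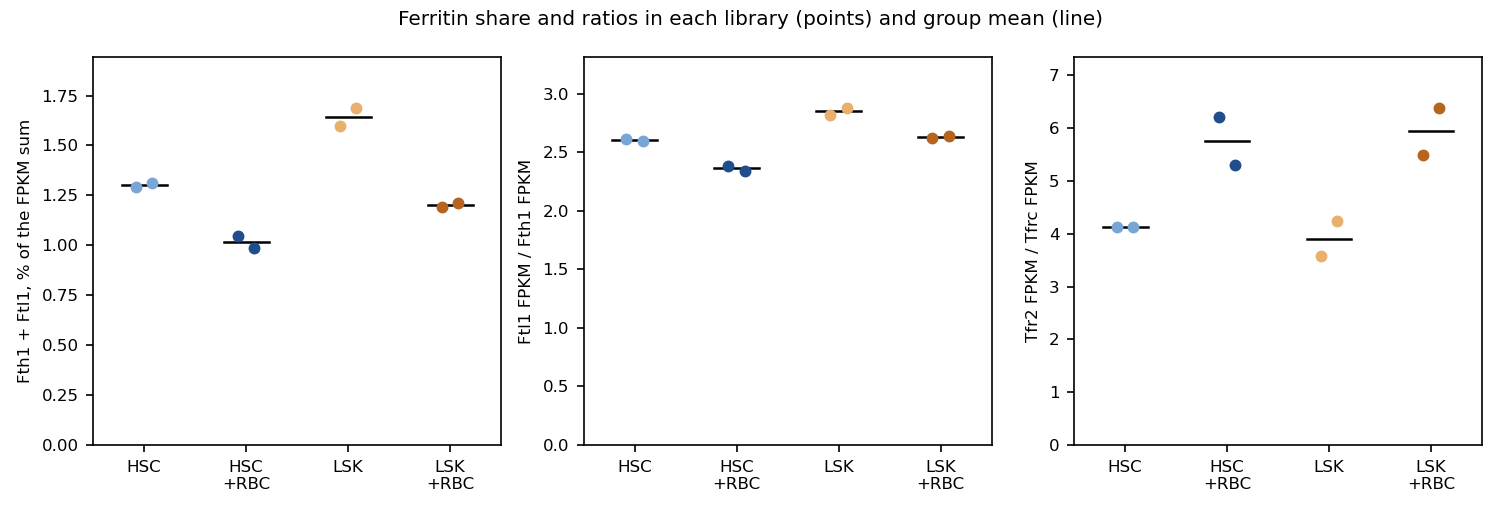
Share of the FPKM sum taken by Fth1 and Ftl1 together (left, percent), the ratio of Ftl1 to Fth1 (middle) and the ratio of Tfr2 to Tfrc (right), all from 0, in the 4 groups; points are libraries and lines group means. The ferritin share lies at or below 1.21% in all libraries with RBCs and at or above 1.29% in all without, and the ratio of Tfr2 to Tfrc is at most 4.23 without RBCs and at least 5.30 with them.

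The 3 uptake genes did not move together. Tfr2 (chr5:137569840-137587481, plus strand) stood at 36.9 and 33.0 FPKM in HSCs without RBCs and at 47.5 and 45.0 FPKM with them. LSK cells had 38.3 and 40.8 FPKM without RBCs and 43.8 and 46.6 FPKM with them. Libraries with RBCs were above those without in both populations, as for 7.61% of tested genes. Tfr2 rose by 0.39 in HSCs (SE 0.0851, adjusted p = 0.0477) and by 0.29 on average (SE 0.0602, adjusted p = 0.0254), and the difference of 0.19 in LSK cells did not pass (adjusted p = 0.276). The call in HSCs was lost on leaving out any 1 of the 8 libraries (0.32 to 0.47, adjusted p from 0.0540 to 0.285). The average call was lost for 6 of the 8, all but the first HSC and the second LSK library without RBCs (adjusted p from 0.0603 to 0.103), and so Tfr2 sat close to the threshold.

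Tfrc, the main receptor for transferrin-bound iron (chr16:32608920-32632794, plus strand), was measured at a lower level. Its values were 8.94 and 7.99 FPKM in HSCs without RBCs, and 7.66 and 8.48 FPKM with them, which overlap. In LSK cells they were 10.7 and 9.64 FPKM without RBCs, and 7.97 and 7.30 FPKM with them, which do not, as for 26.4% of tested genes that were lower there. The difference of -0.37 in LSK cells did not pass the adjusted test (SE 0.126, unadjusted p = 0.0162, adjusted p = 0.160), nor did -0.06 in HSCs (adjusted p = 0.906) or the average of -0.22 (adjusted p = 0.233). LSK libraries without RBCs were thus the high ones for Tfrc, and the ratio of Tfr2 to Tfrc was 4.13 and 4.13 in HSCs, 6.20 and 5.30 in HSCs with RBCs, 3.58 and 4.23 in LSK cells, and 5.49 and 6.39 in LSK cells with RBCs.

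Slc11a2, the DMT1 transporter (chr15:100387898-100425072, minus strand, overlapped on the other strand by Gm5475), was at 11.9 and 10.05 FPKM in HSCs and at 12.4 and 11.4 FPKM with RBCs. In LSK cells it was at 10.4 and 11.3 FPKM without RBCs and at 8.18 and 9.71 FPKM with them. The differences of 0.11 in HSCs and -0.26 in LSK cells did not pass (adjusted p = 0.816 and 0.328). Their own difference, 0.37 with an interval from -0.05 to 0.79, did not pass either (adjusted p = 0.455).

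Slc40a1, which encodes ferroportin, the iron exporter (chr1:45908068-45926523, minus strand), had the largest difference of the 10 genes with RBCs in HSCs and a small one in LSK cells. It stood at 5.18 and 7.26 FPKM in HSCs without RBCs and at 10.2 and 10.7 FPKM with RBCs. In LSK cells the values were 4.99 and 4.94 FPKM without RBCs and 5.91 and 4.96 FPKM with them. HSCs with RBCs were apart from all other groups, and 19.9% of tested genes were likewise above both HSC libraries without RBCs, and the other groups overlapped one another in order of level. The difference of 0.68 in HSCs did not pass (SE 0.162, adjusted p = 0.0715), and that of 0.10 in LSK cells had an interval from -0.26 to 0.47. The average of 0.39 did not pass with all libraries (adjusted p = 0.0944) and passed without the second HSC library without RBCs, at 0.50 (adjusted p = 0.0416). The test of unequal response gave 0.57 (SE 0.229, interval 0.06 to 1.09, unadjusted p = 0.0332, adjusted p = 0.350). That test called none of the 10 genes by limma, and 1 of 10 had an unadjusted p under 0.05, against 0.133% of all genes called and 12.5% with an unadjusted p under 0.05. Under quantile normalization it called Ftl1 (-0.35), whose LSK difference is fixed at 0.00 there by construction. A response that differs between the populations was therefore not established for Slc40a1.

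Aco1, which is IRP1 when it binds RNA and an aconitase when it holds an iron-sulphur cluster (chr4:40143081-40198338, plus strand), followed the order of the ferritin genes. It stood at 12.6 and 11.5 FPKM in HSCs and at 9.66 and 10.8 FPKM with RBCs, and in LSK cells at 14.7 and 13.7 FPKM and at 11.0 and 11.3 FPKM. The groups did not overlap in either population, as for 6.97% of tested genes that were lower in both, but the average difference of -0.27 did not pass (SE 0.0790, adjusted p = 0.0915). Ireb2, which encodes IRP2 (chr9:54863789-54912530, plus strand), was at 5.03 and 4.95 FPKM in HSCs and at 5.39 and 4.93 FPKM with RBCs, and in LSK cells at 7.21 and 5.72 FPKM and at 6.36 and 6.74 FPKM. The groups with and without RBCs overlapped for Ireb2, and the average difference of 0.03 had an interval from -0.20 to 0.26. The 4 genes of the ligase that marks IRP2 for degradation, among them its iron-sensing subunit Fbxl5, were all tested. None was called with RBCs by limma, against 2.53% of all tested genes in HSCs and 3.45% in LSK cells, so no call among 4 was near the background. At an unadjusted p under 0.05 there was 1 of 4 in HSCs and none in LSK cells, and the share over all genes at that level is not given here.

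Bach1 (chr16:87698945-87733346, plus strand) was at 6.69 and 5.66 FPKM in HSCs without RBCs and at 5.54 and 5.77 FPKM with them, and in LSK cells at 8.12 and 7.10 FPKM and at 7.72 and 6.99 FPKM. These groups overlapped, and the average difference was -0.07 (interval -0.29 to 0.15, adjusted p = 0.754). Slc25a37, or mitoferrin 1, which carries iron into mitochondria for heme synthesis (chr14:69241848-69285112, minus strand, overlapped by Gm20236 on its strand and by 3 genes on the other), was at 8.18 and 8.70 FPKM in HSCs and at 8.91 and 8.13 FPKM with RBCs. In LSK cells it was at 9.22 and 9.26 FPKM and at 11.9 and 10.1 FPKM. LSK libraries with RBCs were above those without, as for 24.2% of tested genes, and the difference of 0.22 there did not pass (adjusted p = 0.372).

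**Figure D3:**
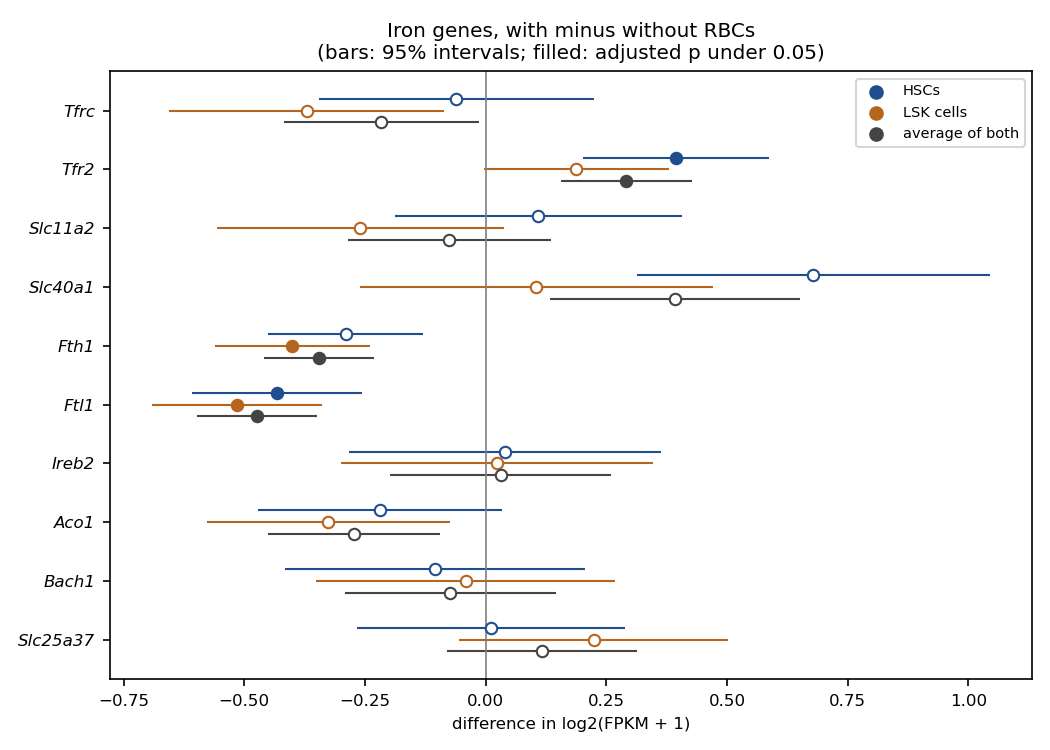
Difference in log2(FPKM + 1), with minus without RBCs (horizontal axis), for the 10 iron genes in HSCs, in LSK cells and on average; bars are 95% intervals and filled points have an adjusted p under 0.05. Ftl1 is filled in all 3 comparisons, from -0.52 to -0.43, and Slc40a1 in HSCs has the largest difference, 0.68, with an open point.

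A wider set of 79 iron and heme genes, listed from general knowledge with earlier results of these data known, placed these values beside their pathway. Of these, 62 passed the filter, and 1 was called higher and 9 lower with RBCs in the average of both populations, with a median of -0.03 beside -0.01 for all genes. The background was 3.38% of genes higher and 1.99% lower. The 9 were the heme transporter Slc48a1, heme oxygenase Hmox1, biliverdin reductase Blvrb, transferrin (Trf), and Nqo1, Gclm, Gclc, Txnrd1 and Me1, enzymes of quinone, glutathione, thioredoxin and NADPH metabolism. Alas2, which starts heme synthesis in erythroid cells and is known to carry an IRE, was the 1 higher gene, at 1.05. The strict search above found no site in it, and it is also on the red blood cell list. Alas2 was at or below 0.278 FPKM without RBCs. With them it was at 2.28 and 1.60 FPKM in HSCs and at 0.598 and 1.55 FPKM in LSK cells. It thus passed the filter only through libraries with RBCs, so its call is given as a description.

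Slc48a1, known as HRG1, which moves heme out of endosomes and lysosomes, was called lower in both populations. HSC libraries had 167 and 154 FPKM without RBCs and 112 and 115 FPKM with them, against 196 and 194 FPKM and then 109 and 106 FPKM in LSK cells. The decrease was -0.50 in HSCs (SE 0.0653, adjusted p = 0.00489) and -0.85 in LSK cells (SE 0.0653, adjusted p = 3.78e-04), and the difference between them did not pass (adjusted p = 0.194). The HSC call was lost without the first HSC library with RBCs (adjusted p = 0.0572). Hmox1, which breaks heme down and frees its iron, had 15.5 and 10.5 FPKM in HSCs and 7.92 and 7.84 FPKM with RBCs, against 28.6 and 30.3 FPKM and then 13.6 and 16.8 FPKM in LSK cells. It fell by 0.77 on average (SE 0.119, adjusted p = 0.00599) and by 0.92 in LSK cells (adjusted p = 0.0218), a call that was lost without any 1 of the 4 LSK libraries (adjusted p from 0.0667 to 0.142). Groups with and without RBCs did not overlap in either population for these 2 genes, as for 6.97% of tested genes that were lower in both.

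The list of Bach1 partners and target genes had 14 tested genes, of which 9 were called lower and none higher on average, with a median of -0.35. Of all tested genes, 1.99% were called lower. The list was drawn up with earlier results of these data known, so its counts are a description and no independent support. Fth1, Ftl1 and Slc40a1 are on this list too, so it is not separate from the 10 genes. Lower were Fth1, Ftl1, Hmox1, Blvrb, Nqo1, Gclm, Gclc, Txnrd1 and Me1. Not called were the partners Mafk, Mafg and Maff, the activator Nfe2l2 that binds the same elements, and Slc40a1. In LSK cells 7 of the 14 were called lower and in HSCs 2, against 1.13% and 0.958% of all tested genes. The limma test of the difference called none of the 62 wider genes, of which 7 had an unadjusted p under 0.05. Of all tested genes, 0.133% were called and 12.5% had an unadjusted p under 0.05, so both counts were near the background. Nqo1 had the largest decrease, from 121 and 81.7 FPKM to 22.4 and 29.8 FPKM in LSK cells (-1.90, SE 0.199, adjusted p = 0.00132) beside 53.5 and 66.4 FPKM to 42.6 and 34.7 FPKM in HSCs (-0.62, adjusted p = 0.181). Gclm went from 214 and 215 FPKM to 114 and 106 FPKM in LSK cells (-0.95, SE 0.0882, adjusted p = 7.37e-04), and its difference of -0.22 in HSCs did not pass (adjusted p = 0.306). The calls of Gclc, Txnrd1 and Me1 in the average each lost significance without at least 5 of the 8 libraries in turn. The average calls of Nqo1, Gclm, Blvrb and Trf held for every library left out. The omissions were made after the filter, which Alas2 passed only through libraries with RBCs, so they do not test its call.

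**Figure D4:**
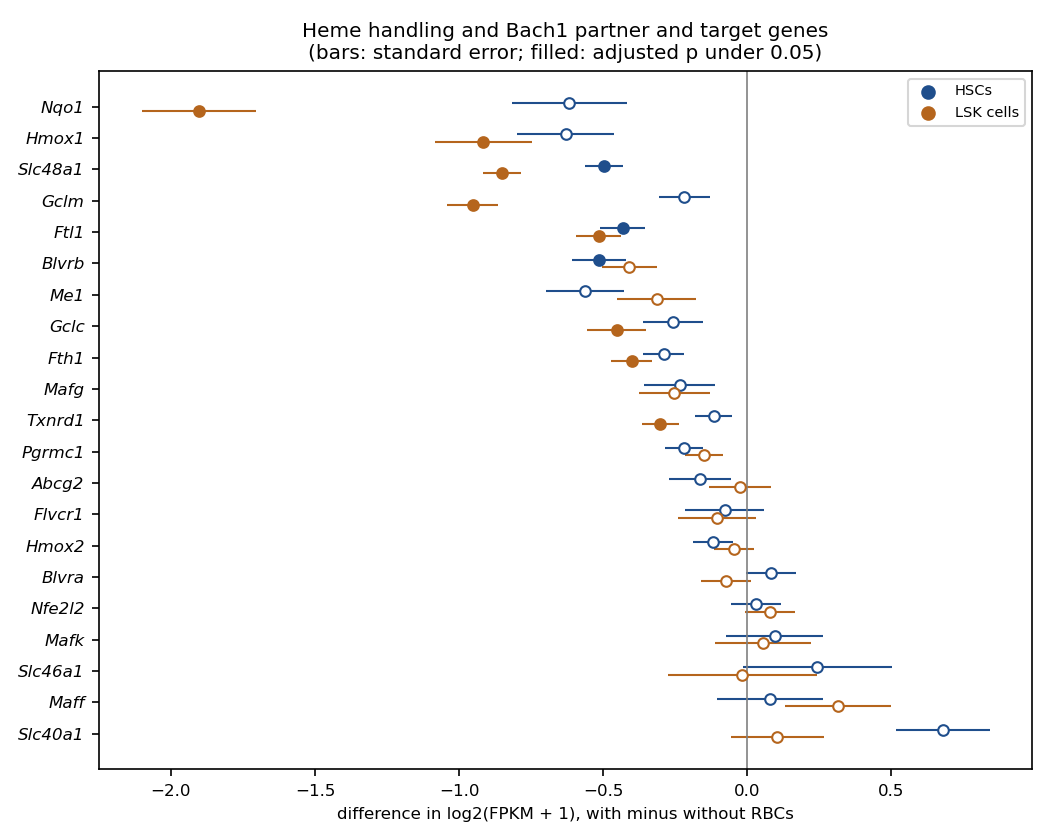
Difference in log2(FPKM + 1), with minus without RBCs (horizontal axis), in HSCs and LSK cells for the 21 tested genes of the heme handling and Bach1 lists, ordered by their average; bars are standard errors and filled points have an adjusted p under 0.05. Nqo1, Hmox1, Slc48a1 and Gclm lie lowest, with LSK values from -1.90 to -0.85, while the partners Mafk and Maff lie above 0 in both populations.

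The letters TGACNNNGC, read on both strands as a short form of the element that Bach1 and Nfe2l2 bind, were looked for in RefSeq promoter windows from 250 bases before to 50 after each gene start (GRCm38.p6). They occurred in the windows of 3781 of 27025 genes (14%). None of the 7 iron genes with a window had them, Fth1 and Ftl1 among these genes. Elements outside the windows were not looked for, so this says only that the letters are absent near the gene start. Of 13 Bach1 list genes, 7 had the letters. Among these, Gclm, Txnrd1 and Me1 were called lower with RBCs on average, and Mafk, Mafg, Maff and Nfe2l2 were not called. Whether the letters bear on the differences with RBCs was not tested.

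Iron-sulphur cluster assembly and the ferritin partners had no call with RBCs. None of 16 mitochondrial and 9 cytosolic genes of iron-sulphur cluster assembly was called by limma in either population or on average. The medians of the averages were -0.02 and -0.01, with 3 and 1 genes at an unadjusted p under 0.05, a level whose share over all genes is not given here. Nor was any of the 3 tested ferritin partners called, Pcbp1, Pcbp2 and the ferritin cargo receptor Ncoa4. Of all tested genes, 2.53% were called in HSCs, 3.45% in LSK cells and 5.37% on average. Lists this short can hold no call at such shares. None of the 8 genes of the export and hepcidin axis passed the filter on low values. Among 10 tested partners of uptake, Trf was called lower in HSCs, from 46.7 and 50.7 FPKM to 36.1 and 35.5 FPKM (-0.43, adjusted p = 0.0144), a call lost without the second HSC library without RBCs or either with them (adjusted p from 0.0814 to 0.0980), and Trf was at -0.16 in LSK cells (adjusted p = 0.262).

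The populations themselves differed in 4 of the 10 genes on average over both conditions, 3 higher and 1 lower in LSK cells, against 32.9% of all tested genes called (16.1% higher and 16.8% lower), so the share was near the background. Ftl1 was higher in LSK cells by 0.28 (SE 0.0551, adjusted p = 0.00455), Bach1 by 0.30 (SE 0.0971, adjusted p = 0.0437) and Ireb2 by 0.30 (SE 0.101, adjusted p = 0.0468). Slc40a1 was lower by 0.55 (SE 0.115, adjusted p = 0.00617). For Bach1 and Ireb2 the LSK libraries lay above all HSC libraries, as for 13.6% of tested genes, and yet each call was lost when any of 7 of the 8 libraries was left out, for Bach1 all but the first HSC and for Ireb2 all but the second LSK library without RBCs (adjusted p from 0.0542 to 0.142). The calls of Ftl1 and Slc40a1 held for every omission.

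Without RBCs, Ftl1 was called higher in LSK cells (0.32, adjusted p = 0.0251; 1 of 10, background 14.2%), a call lost without either HSC library with RBCs or any LSK library (adjusted p from 0.0593 to 0.176). With RBCs, Slc40a1 was called lower in LSK cells (-0.84, SE 0.162, adjusted p = 0.00629; 1 of 10, background 24.4%), and the call was lost without the second LSK library with RBCs (-0.73, adjusted p = 0.0543). Both ferritin genes and Aco1 shared 1 order of the groups, each apart from the next: LSK cells without RBCs highest, then HSCs without, LSK cells with and HSCs with RBCs. This order was held by 0.125% of tested genes and was singled out after the values were seen, so it is given as a description. In the wider set, 10 of 62 tested genes were called higher and 15 lower in LSK cells on average. The shares of all tested genes were 16.1% higher and 16.8% lower, and the higher count was near its share. The higher ones included Lcn2, an iron-siderophore binding protein of neutrophils (1.34), Trf (1.05), Hmox1 (1.004), Mafg and Mafk (both 0.60) and Ncoa4 (0.55). Among the lower ones were the metal transporter Slc39a8 (-0.75), the iron-sulphur gene Bola3 (-0.69) and the hemochromatosis gene Hfe (-0.63). Of 16 mitochondrial assembly genes, 5 were lower, against 16.8% of all tested genes. Lcn2 was listed at 0 in both HSC libraries without RBCs, was at 2.50 and 0.105 FPKM in those with RBCs and varied from 0.476 to 6.45 FPKM in LSK libraries. It thus passed the filter only with the LSK libraries, where it was high, so its call is given as a description. Its call was lost without either HSC library without RBCs, the second HSC library with RBCs, the second LSK library without or the first with RBCs (0.92 to 1.34, adjusted p from 0.0576 to 0.0840), and the neutrophil genes above were higher in LSK libraries as well.

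**Figure D5:**
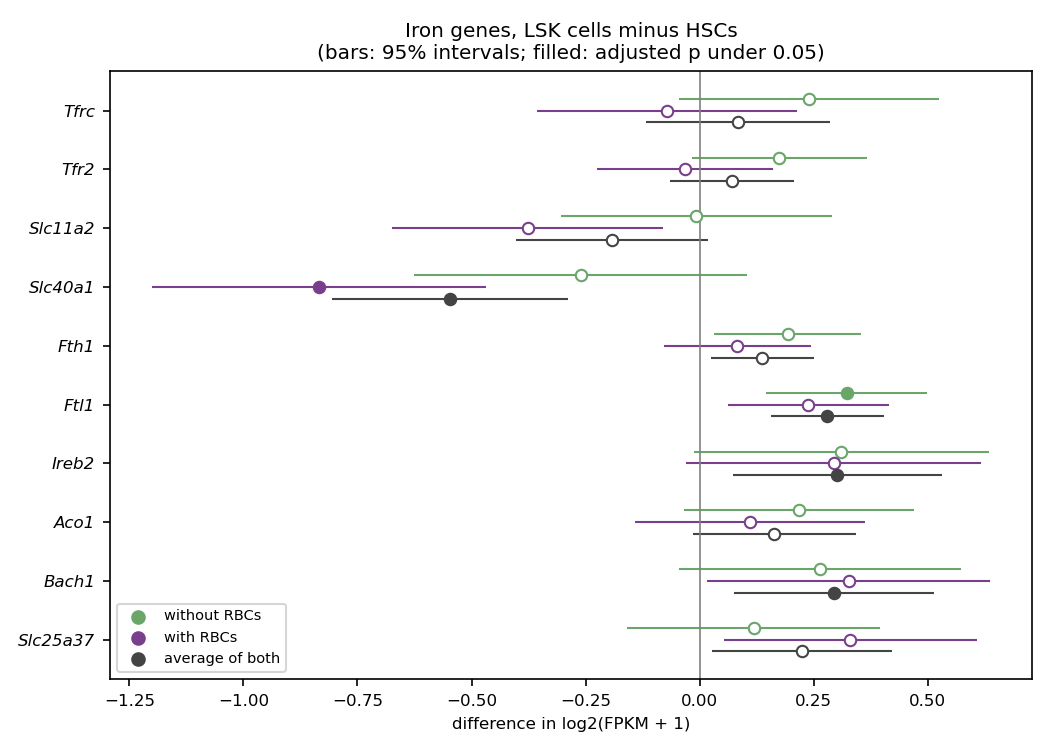
Difference in log2(FPKM + 1), LSK cells minus HSCs (horizontal axis), for the 10 iron genes without RBCs, with RBCs and on average; bars are 95% intervals and filled points have an adjusted p under 0.05. Slc40a1 lies lowest, at -0.84 with RBCs, and Ftl1 is higher in LSK cells at 0.32 without and 0.24 with RBCs, the latter an open point.

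Over the 8 libraries, the genes whose log2 levels ran closest to 3 of the 10 genes were listed as a description, since libraries of a group share their condition. For Fth1 these were Ftl1 (Pearson's r = 0.984), Fam69b (r = 0.980) and Noa1 (r = 0.972). For Slc40a1 they were Ublcp1, Gmds and Rhbdl2 (r from 0.976 to 0.980), and for Tfrc they were Pdcd2, Exosc10 and 2700099C18Rik (r from 0.929 to 0.936).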

How the data were processed

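Expression was deposited by the authors as FPKM, with 24346 symbols in each of 8 libraries, made from SMART-Seq HT full-length cDNA, a chemistry that does not mark strand. The submitters' processing notes name TopHat2 2.1.1, Bowtie2 2.2.8, SAMtools 0.1.18, Cuffdiff 2.2.1 and the build mm10, and replicates were not pooled. Groups came from the labels. Genes that reached an FPKM of 1 in 2 or more libraries were kept (12003) and analysed on the scale log2(FPKM + 1), where the added 1 is the pseudocount. The 4 group means were estimated in a joint fit with limma 3.58.1 (R 4.3.3) with a mean-variance trend (4 residual and 5.18 prior degrees of freedom), with Benjamini-Hochberg adjustment. The fit was tried on simulated data for RBCs against no RBCs in HSCs, with 200 of 12003 genes changed. It recovered 98 of 100 genes changed by 1 and 100 of 100 changed by 2 on the log2 scale, and called 6 unchanged genes. The simulated noise was normal, with a spread smoothed over genes of like level. Changes as small as those of the 10 genes, all below 2-fold, were not simulated, so power for them was not tested. Positions and transcripts came from GENCODE M21, where all 10 genes were found.

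The 10 genes and the wider and marker lists were chosen with earlier results of these data known. Named were all 10 genes, wider-list genes that were called (up to 10 per comparison, by size), the 3 genes most correlated with Tfrc, Fth1 and Slc40a1, and markers. Flvcr1, Flvcr2 and Epb42 were read under the older symbols of the files, and 6 names of ferritin pseudogenes and copies, Hbb-bt and Ahsp were not analysed here. Alternatives covered the pseudocount, filter, scaling, trend, fold threshold, samples in the fit, replicate block and omission of each library in turn, where the group left with 1 library is assumed to vary like the others. The precision is set by 2 libraries a group, since read counts and hence counting error are unknown.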

Additional observations from a re-analysis of the deposited data

How the results depend on the processing

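The counts of called genes among the 10 were 2 in HSCs, 2 in LSK cells, 3 on average with RBCs, 0 for the difference of effects, and 1 without, 1 with and 4 averaged over RBCs for LSK cells against HSCs. With a 2-fold threshold each became 0. Without the filter, HSCs, LSK cells and the comparison without RBCs gave 0 each and the averaged population comparison 2. Without the trend, HSCs and the comparison without RBCs gave 0 and LSK cells 1. With only the groups compared in the fit, HSCs and the comparison without RBCs gave 0 and that with RBCs 2. A pseudocount of 0.1 gave 2 with RBCs. Quantile normalization gave 1 in LSK cells, 1 for the difference of effects, 2 without and 3 with RBCs. Median-ratio scaling left all 7 counts as they were. The 0.00 of Ftl1 in LSK cells under quantile normalization, and with it the lost call there, follows from its construction. The -0.35 of Ftl1 for the difference of effects is the HSC difference less that fixed 0.00. The cause of the other changes was not tested. Leaving out each library gave 0 to 2 in HSCs, 0 to 2 in LSK cells, 2 to 3 on average with RBCs, 0 to 0 for the difference of effects, 0 to 2 without RBCs, 0 to 2 with RBCs and 2 to 4 averaged over conditions.

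The replicate numbers in the labels did not pair the libraries: deviations of libraries with the same number correlated between -0.0670 and 0.0954. With the replicate block, 0 were called in HSCs, 1 in LSK cells, 3 on average with RBCs, 0 without RBCs, 1 with RBCs, 3 averaged over conditions and 0 for the difference of effects.

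Over all genes, 304 were called in HSCs, against 93 with the 2-fold threshold, 119 without the filter, 162 without the trend and 170 with only the groups compared. In LSK cells 414 were called, against 121, 181 and 220 for the first 3 of these, and on average 645, against 90 and 380 for the first 2. For the difference of effects 16 were called, against 2 without the filter, 1 without the trend, 10 with the block and 38 after quantile normalization. For LSK cells against HSCs, the 2-fold threshold took 1707 to 319 without RBCs, 2923 to 433 with RBCs and 3944 to 326 on average, and the count without RBCs was 1117 without the filter and 1042 with only the groups compared.

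Directions turned for small differences that passed no test in any of these fits, except Ftl1. Under quantile normalization, Ftl1 was at 0.00 in LSK cells and -0.35 for the difference of effects (adjusted p = 0.0128), Ireb2 at -0.013 in LSK cells and Slc25a37 at -0.0012 in HSCs. Over the omissions of 1 library each, differences ranged in HSCs from -0.13 to 0.012 for Tfrc, -0.0014 to 0.22 for Slc11a2, -0.014 to 0.093 for Ireb2 and -0.048 to 0.071 for Slc25a37. In LSK cells they ranged from -0.0019 to 0.21 for Slc40a1, -0.12 to 0.17 for Ireb2 and -0.13 to 0.044 for Bach1. The average for Ireb2 ranged from -0.041 to 0.10, the difference of effects from -0.13 to 0.16 for Ireb2 and -0.17 to 0.040 for Bach1, and LSK cells against HSCs from -0.076 to 0.011 for Tfr2 with RBCs and -0.12 to 0.10 for Slc11a2 without.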
